A study of Mus musculus with 10 samples.

Results

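Serine, the folate-bound one-carbon units derived from it, asparagine, cysteine and proline can all be made inside the cell, and 10 enzymes that carry out these syntheses were followed here: Phgdh, Psat1, Psph, Shmt2, Mthfd2, Asns, Cth, Cbs, Aldh18a1 and Pycr1. They form a named list of 10 among the 53379 genes counted, drawn up with earlier results of these libraries known, and all 10 had enough reads to be tested. RNA-seq was performed on cells of the Emx1+ lineage, purified by FACS from E16 mouse cortex, to compare 3 cKO-Cdkn1c-MADM-7 embryos (cKO) with 7 control MADM-7 embryos. The cKO embryos carried Cdkn1c-flox, the conditional allele, on both chromosomes, one with the MADM-7 GT cassette and the other with the TG cassette, together with Emx1-Cre/+. The controls were MADM-7 GT/TG;Emx1-Cre/+ and had intact Cdkn1c alleles. Both genotypes therefore carried Emx1-Cre, which drives recombination in progenitors of the dorsal telencephalon and their descendants, and the MADM cassettes on chromosome 7. The labels give CD1 as the strain background, while the breeding notes describe mixed C57BL/6J and CD1 animals, and the sexes were not separated. Each library came from 400 cells of a single embryo, with GFP+, tdT+ and doubly labelled cells sorted together.

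In serine synthesis, Phgdh oxidises a glycolytic intermediate, Psat1 transfers an amino group to the product from glutamate, and Psph removes the phosphate to release serine. Shmt2 and Mthfd2 work in the mitochondrion, where Shmt2 splits serine into glycine and a folate-bound carbon that Mthfd2 then oxidises. Asns moves the amide of glutamine onto aspartate, Cbs and Cth turn homocysteine and serine into cysteine by way of cystathionine, and Aldh18a1 and Pycr1 convert glutamate into proline. Several of these genes are textbook targets of ATF4, a transcription factor whose translation rises when cells lack amino acids or accumulate unfolded protein, and neural progenitors of the embryo depend on serine and one-carbon units for nucleotide synthesis.

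Gene counts summed to 1738220 to 3362487 reads per library (median 2847960). Levels are given as CPM (reads of a gene per 1000000 gene reads) after TMM scaling, and folds come from edgeR's quasi-likelihood test over the 11551 genes that averaged 10 reads or more, with Benjamini-Hochberg adjustment over all of them and a threshold of 0.05. Cdkn1c, the targeted gene, lay between 3.94 and 10.8 CPM in cKO and between 67.5 and 131 CPM in controls (log2 fold change -3.66, adjusted p = 3.68e-06), so every library matched its label. The libraries fell apart by the share of uniquely aligned reads outside genes, with 1 cKO and 4 controls at 5.47% to 8.64% and 2 cKO and 3 controls at 12.8% to 16.7%. The number of embryos is small, and the p values describe the spread between single embryos.

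Of the 10 enzymes, 5 were higher in cKO (Psat1, Psph, Mthfd2, Asns and Cth) and 0 were lower. Over all genes tested, 2.27% were called higher and 0.883% lower, a background for a list that was not chosen blind to these results. The median log2 fold change of the 10 enzymes was 0.75, beside 0.011 over all genes. With an unadjusted p under 0.05, 6 enzymes were higher and 0 lower, Shmt2 being the one added, where 9.25% of all genes tested were higher by that measure and 16.4% passed it in either direction. DESeq2 and limma-voom each called 5 higher and 0 lower. On simulated data DESeq2 made more false calls than edgeR (18.2% against 8.84%). In 4 of the 10 (Psph, Mthfd2, Asns and Cth) every cKO library lay above every control, as it did for 3.32% of all genes. Summed over the 10 enzymes, transcripts made up 1188, 1050 and 1486 CPM in cKO replicates 1, 2 and 3, and 645 to 835 CPM in controls with a median of 731, so the sums did not overlap. Replicate 3 was the highest cKO library for 7 of the enzymes. With the replicate numbers as a block, 3 of the enzymes were called. Controls whose number no cKO library shares add nothing to that comparison, and the numbers do not pair the libraries.

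**Figure D1:**
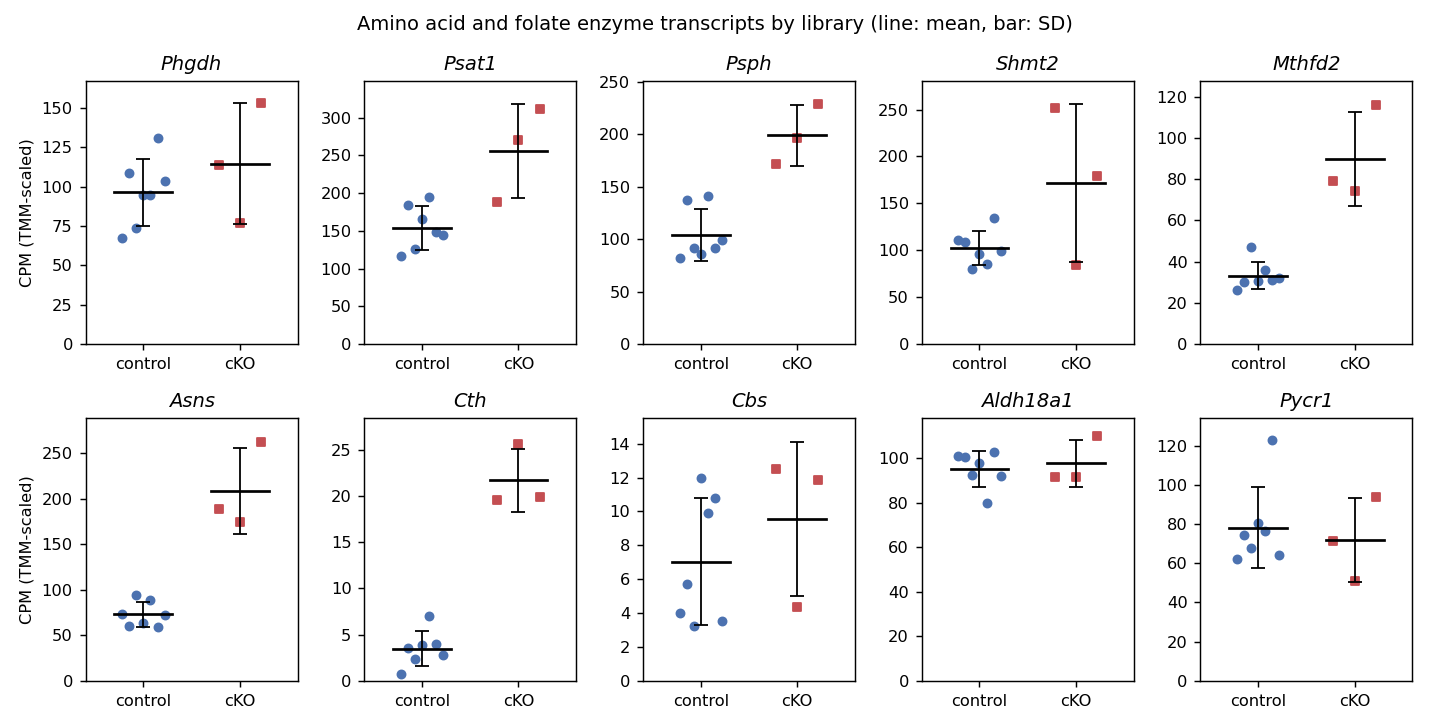
Levels of the 10 enzyme transcripts in each library, in CPM on linear axes that start at 0, with 7 controls (circles) and 3 cKO (squares), and the mean with its SD. The genotypes are separate for Psph, Mthfd2, Asns and Cth, whereas they overlap for the other 6.

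Phgdh (ENSMUSG00000053398.11, minus strand of chromosome 3 of GRCm38, 98313170 to 98339990), the entry step of serine synthesis, stood at 114, 76.8 and 153 CPM in cKO replicates 1, 2 and 3. The controls ran from 67.5 to 131 CPM with a median of 94.9. One cKO library was above all controls and another was below 5 of them, so the genotypes overlapped. The log2 fold change was 0.25 (SE 0.22, 95% interval -0.21 to 0.71), and Phgdh was not called (edgeR adjusted p = 0.639).

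Psat1 (ENSMUSG00000024640.9, minus strand of chromosome 19, 15904678 to 15947337), the aminotransferase of the second step, measured 189, 270 and 311 CPM in cKO, with 116 to 195 CPM and a median of 148 in controls. It rose by 0.74 on the log2 scale (SE 0.18, interval 0.36 to 1.11, adjusted p = 0.0286), although control replicate 5 exceeded the lowest cKO library. The call lay close to the threshold. It was lost without cKO replicate 2 (adjusted p = 0.0720) or 3 (0.151), without control replicate 1 (0.0559), 3 (0.0571) or 7 (0.0586), and with the replicate block (0.0907).

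Psph (ENSMUSG00000029446.14, minus strand of chromosome 5, 129765558 to 129787449), the phosphatase that releases serine, stood at 171, 197 and 229 CPM in cKO. In controls it ran from 82.4 to 141 CPM with a median of 91.5, below every cKO library. The log2 fold change was 0.95 (SE 0.18, interval 0.57 to 1.33, adjusted p = 0.00565), and the adjusted p was 0.0519 with the replicate block. Psph shares exonic bases with Cct6a on the other strand, and 21.0% of the reads that the strand-specific columns assign to it are left out of the column used here. With the strand-specific columns summed, the log2 fold change was 0.76 (adjusted p = 0.0114).

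The steps of serine synthesis were then set against each other inside each library, where no scaling between libraries is needed. The log2 ratio of Psph to Phgdh was 0.59, 1.36 and 0.58 in the cKO libraries and -0.52 to 0.57 in controls, with a median of 0.29. The genotypes did not overlap, and the ratio was 0.73 higher in cKO (p = 0.0167 in a two-sided exact permutation test, which can go no lower with these group sizes, and adjusted p = 0.0333 over the 10 ratios computed). This call was lost with the strand-specific columns summed, where the difference was 0.53 (adjusted p = 0.133). For Psat1 to Phgdh the cKO libraries gave 0.73, 1.81 and 1.02 against 0.18 to 1.04 in controls with a median of 0.77, and the difference of 0.50 did not pass (exact permutation p = 0.183, adjusted 0.262).

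In mitochondrial one-carbon metabolism, Mthfd2 (ENSMUSG00000005667.8, minus strand of chromosome 6, 83305691 to 83325908) measured 78.9, 74.5 and 116 CPM in cKO. The controls lay between 26.1 and 47.1 CPM with a median of 31.3, below all cKO libraries. Mthfd2 rose by 1.42 on the log2 scale (SE 0.20, interval 0.99 to 1.85, adjusted p = 0.000565). Shmt2 (ENSMUSG00000025403.5, minus strand of chromosome 10, 127517123 to 127522444), which supplies the carbon that Mthfd2 oxidises, stood at 252, 84.7 and 179 CPM in cKO and at 80.6 to 135 CPM in controls, with a median of 98.9. Replicates 1 and 3 were above all controls, whereas replicate 2 was below 6 of them. The log2 fold change of Shmt2 was 0.75 (SE 0.24, interval 0.25 to 1.26), and it was not called (adjusted p = 0.102). The value depended on single cKO libraries, with a log2 fold change of 0.35 (adjusted p = 0.495) without replicate 1 and of 1.07 (adjusted p = 0.0031) without replicate 2.

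Cells hold a related enzyme for most of these mitochondrial steps, and 4 ratios compared them. Mthfd1 is a cytosolic enzyme that interconverts the same folate forms, and the log2 ratio of Mthfd2 to Mthfd1 was 1.10, 0.71 and 1.68 in cKO and -0.37 to 0.65 in controls, with a median of -0.15. Mthfd2l is a second mitochondrial form, and the log2 ratio of Mthfd2 to Mthfd2l was 1.13, 0.65 and 1.19 in cKO and -0.84 to 0.12 in controls, with a median of -0.63. Neither ratio overlapped between genotypes. The differences were 1.22 and 1.56 (for each, exact permutation p = 0.0167 and 0.0333 after adjustment). Shmt1 splits serine in the cytosol, and the ratio of Shmt2 to Shmt1 spread widely in cKO, at 3.51, 1.10 and 2.37, around controls of 1.87 to 3.03 with a median of 2.71. Its difference was -0.21 (exact permutation p = 0.65, adjusted 0.722). The ratio of Aldh1l2 to Aldh1l1, the mitochondrial and cytosolic enzymes that release the carbon as carbon dioxide, differed by -1.10 (exact permutation p = 0.117, adjusted 0.194).

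**Figure D2:**
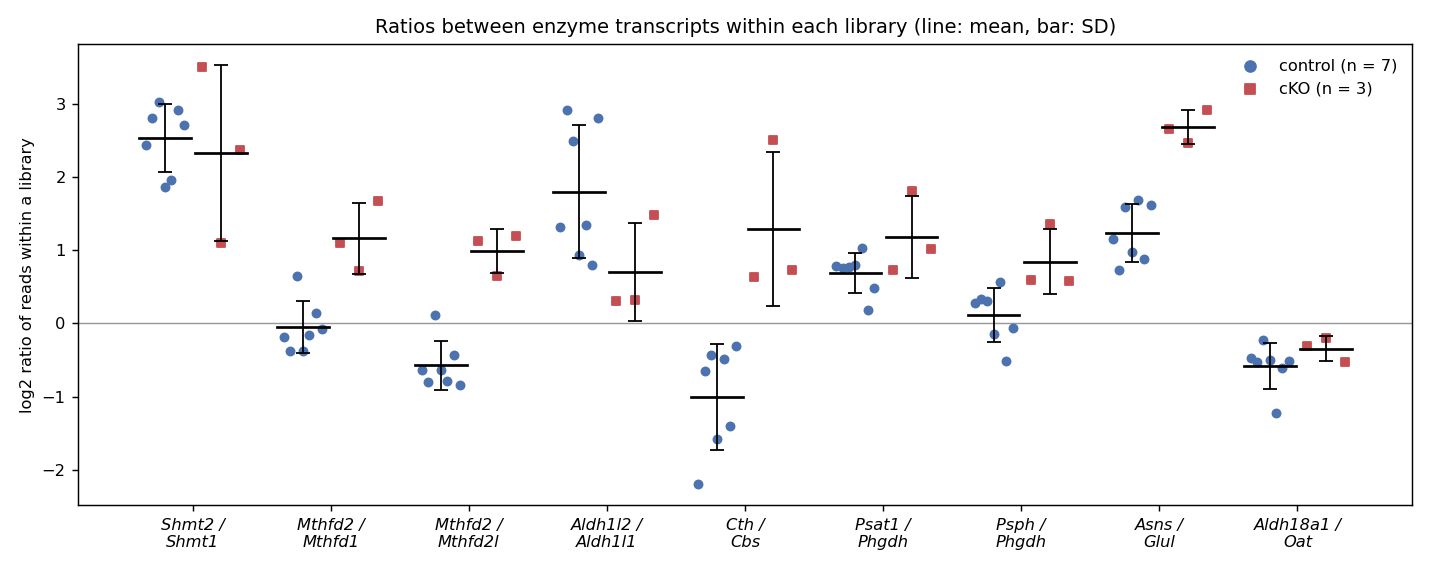
Log2 ratios of reads between pairs of enzyme transcripts in each library, for 7 controls (circles) and 3 cKO (squares), with the mean and SD of each genotype. Both Mthfd2 ratios, Cth to Cbs, Psph to Phgdh and Asns to Glul are separate between the genotypes, and the other 4 ratios shown overlap.

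Asns (ENSMUSG00000029752.12, minus strand of chromosome 6, 7675169 to 7693254) makes asparagine and is widely used as a readout of amino acid stress. It stood at 189, 175 and 263 CPM in cKO and between 59.0 and 94.5 CPM in controls, with a median of 72.6. The lowest cKO library was well above the highest control. Asns rose by 1.51 on the log2 scale (SE 0.18, interval 1.14 to 1.88, adjusted p = 8.33e-05), which placed it 16th of the 11551 genes by p. The log2 ratio of Asns to Glul, which uses the same glutamate and glutamine pool in the other direction, was 2.66, 2.47 and 2.93 in cKO and 0.73 to 1.69 in controls with a median of 1.15. This difference was 1.45 (exact permutation p = 0.0167, adjusted 0.0333).

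The motif TGATGNAA, the core of the C/EBP-ATF response element that ATF4 binds with its partners, was searched on both strands from 250 bases before to 50 bases after each start site of the RefSeq promoters of GRCm38.p6. Of the 10 enzymes 9 have an entry there, with 10 promoters in all, since Psat1 has 2. The letters were found in 2 of the 9, Asns and Pycr1, and in 3.97% of all 32851 promoters. Windows of 30 bases around both matches are shown because these genes carry the same motif and differed in their change, with the motif in capitals and the gene's own strand read 5′ to 3′. The Asns window is chr6:7693214-7693243 and the Pycr1 window chr11:120643833-120643862, both on the minus strand.
Asns: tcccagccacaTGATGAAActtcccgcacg
Pycr1: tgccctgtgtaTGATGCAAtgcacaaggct
The Asns match begins 23 bases before the RefSeq start site and lies in bases that GENCODE annotates as exon of a longer Asns transcript. The Pycr1 match begins 103 bases before the start and lies outside the annotated exons of the gene. The longer form TGATGCAAT was found in Pycr1 alone among the 9, and in 0.192% of all promoters. Cth had no entry.

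Cth (ENSMUSG00000028179.12, minus strand of chromosome 3, 157894248 to 157925077), which cleaves cystathionine to release cysteine, measured 19.6, 25.6 and 19.9 CPM in cKO. The controls ran from 0.726 to 6.99 CPM with a median of 3.57, all below the cKO libraries. These levels rest on 2 to 65 reads per library. The log2 fold change of 2.71 (SE 0.35, interval 1.97 to 3.45, adjusted p = 0.000231) was the highest of the 10 enzymes, and it ranked 41st when the genes of the fit were ordered from the largest increase. Cbs (ENSMUSG00000024039.14, minus strand of chromosome 17, 31608894 to 31637238), which makes cystathionine, stood at 12.5, 4.33 and 11.9 CPM in cKO and 3.24 to 12.0 CPM in controls, with a median of 5.71. The estimate for Cbs rests on 10 to 37 reads in each library and had a wide interval, with a log2 fold change of 0.49 (SE 0.46, interval -0.48 to 1.46, adjusted p = 0.661). It was 0.22 without cKO replicate 1 and 0.82 without cKO replicate 2, and was not called in either. Among the controls Cbs had a coefficient of variation of 53.4%, where counting alone would give 25.7%.

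The balance of the pair differed between the genotypes. The log2 ratio of Cth to Cbs was 0.64, 2.51 and 0.74 in cKO, and in all 7 controls it was negative, from -2.20 to -0.30 with a median of -0.65. The difference was 2.31 (exact permutation p = 0.0167, adjusted 0.0333).

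For proline synthesis, Aldh18a1 (ENSMUSG00000025007.13, minus strand of chromosome 19, 40550257 to 40588463), which starts the route from glutamate, stood at 91.4, 91.4 and 110 CPM in cKO and at 79.8 to 103 CPM in controls, with a median of 97.6. It varied least among the controls, with a coefficient of variation of 8.32%, against 17.7% to 55.0% for the other 9. Its log2 fold change was 0.028 (SE 0.15, interval -0.29 to 0.34, adjusted p = 0.951), an interval below the estimates of all 5 enzymes that were called. Pycr1 (ENSMUSG00000025140.15, minus strand of chromosome 11, 120635712 to 120643769), which completes proline in the mitochondrion, measured 71.5, 50.8 and 93.8 CPM in cKO. The controls lay between 62.0 and 123 CPM with a median of 74.2. The log2 fold change was -0.12 (SE 0.23, interval -0.61 to 0.36, adjusted p = 0.853). The log2 ratio of Aldh18a1 to Oat, which feeds the same intermediate from ornithine, differed by 0.23 (exact permutation p = 0.233, adjusted 0.292).

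**Figure D3:**
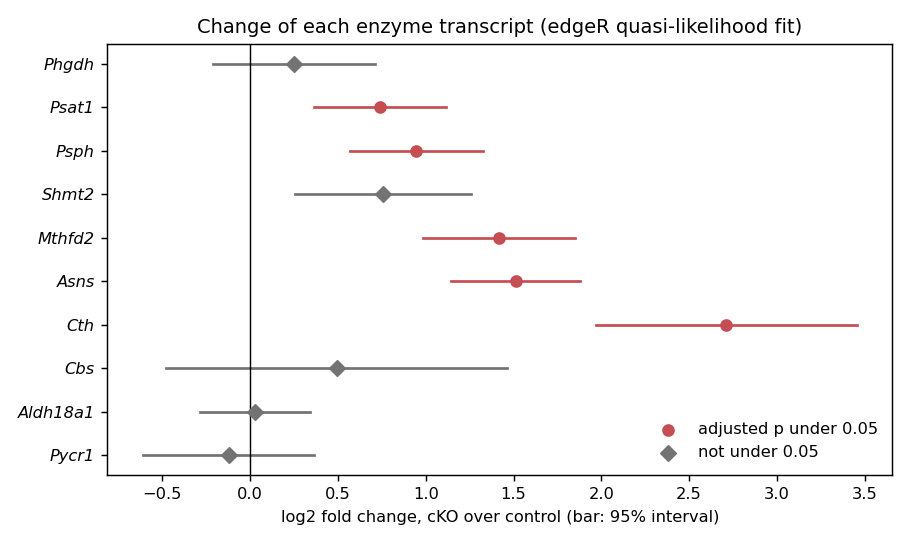
Log2 fold change of each enzyme transcript, cKO over control, with its 95% interval from the edgeR fit. The 5 enzymes called (circles) run from 0.74 for Psat1 to 2.71 for Cth, and the intervals of Phgdh, Cbs, Aldh18a1 and Pycr1 include 0.

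Within the 5 libraries with few reads outside genes, the difference of mean log2 CPM was 1.08 for Psat1, 1.18 for Psph, 1.94 for Mthfd2, 1.98 for Asns and 2.80 for Cth. Within the other 5 it was 0.50, 0.82, 1.03, 1.16 and 2.33 in the same order. Each set holds 1 or 2 cKO libraries, so no test was made. The direction in both sets was fixed in advance for Psph, Mthfd2, Asns and Cth, since every cKO library lay above every control. For Psat1 the direction was the same in both. Shmt2 gave 0.67 and 0.74, whereas Pycr1 gave 0.27 and -0.31.

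Per kilobase of merged exon, Phgdh stood first in controls at 38.7 ± 8.59 CPM per kilobase (SD, n = 7). Psat1 followed at 36.3 ± 6.81, Shmt2 at 32.9 ± 5.83, Asns at 26.8 ± 5.08, Psph at 24.0 ± 5.66, Aldh18a1 at 23.4 ± 1.94 and Pycr1 at 19.9 ± 5.29 on this scale. These 7 overlapped each with its neighbour in the order. Mthfd2 at 9.55 ± 1.94 lay below the range of Pycr1, and Cth at 1.25 ± 0.69 lay below the range of Mthfd2. Cbs, at 0.939 ± 0.50, overlapped with Cth. In cKO Asns stood first by the mean at 76.3 ± 17.3 CPM per kilobase (SD, n = 3), ahead of Psat1 at 60.3 ± 14.6 and Shmt2 at 55.3 ± 27.0. Their ranges overlapped, at 64.0 to 96.0 for Asns, 44.3 to 73.1 for Psat1 and 27.2 to 81.0 for Shmt2. Mthfd2 reached 25.7 ± 6.51 and Cth 7.78 ± 1.21. With the length of the longest transcript in place of merged exons, Psat1 and Phgdh changed places at the top of the controls, and Mthfd2 overlapped with Pycr1.

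**Figure D4:**
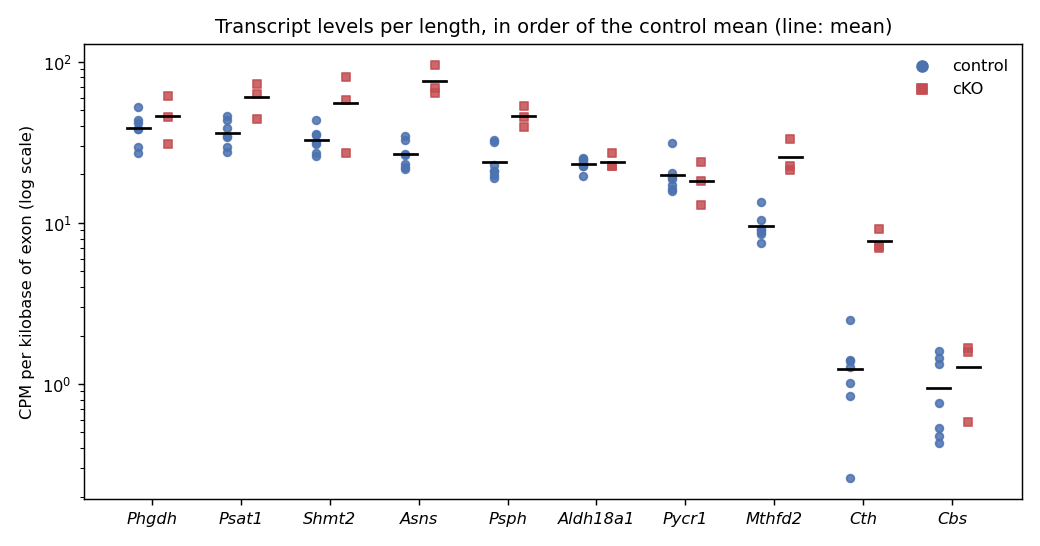
Transcript levels per kilobase of merged exon (CPM per kilobase, log axis) in the 7 controls (circles) and 3 cKO libraries (squares), with lines at the means, in order of the control mean. By the mean, Asns moves from the fourth place in controls to the first in cKO, where its range overlaps those of Psat1 and Shmt2. Cth and Cbs lie lowest in both genotypes.

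The neighbouring genes of these pathways were examined in 5 further lists, with the 10 enzymes left out. Over the 54 genes tested, 1 was called higher and 0 lower, close to the 2.27% of all genes called higher, and the median log2 fold change was 0.067. At an unadjusted p under 0.05, 4 of these genes passed, a smaller share than the 16.4% of all genes. DESeq2 called 1 higher and 0 lower, and limma-voom called 0 in either direction. The gene was Ass1, which joins citrulline to aspartate, at 3.94, 7.21 and 13.2 CPM from lowest to highest in cKO and 0.582 to 4.62 CPM in controls with a median of 1.43. Its log2 fold change was 2.03 (SE 0.50, edgeR adjusted p = 0.0265), it overlapped between genotypes, and it rests on 105 reads in all. The call of Ass1 was lost without control replicate 1, 2, 4, 5 or 6, with limma-voom and with the replicate block. It had too few reads to be tested without cKO replicate 1 or 3, after thinning and with at least 10 reads in every library.

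Among 19 of 20 genes of serine, glycine and folate one-carbon metabolism, edgeR, DESeq2 and limma-voom called 0, and 3 had an unadjusted p under 0.05, a share close to the 16.4% over all genes. Shmt1 had a log2 fold change of 0.83 (adjusted p = 0.141), Tyms, which makes thymidylate from the folate-bound carbon, 0.51 (0.166), Aldh1l1 1.35 (0.210) and the serine carrier Sfxn1 0.28 (0.309). The median log2 fold change of this list was 0.20. Among 6 of 9 genes of serine and glycine breakdown the median was -0.0026, with Srr, the serine racemase, at -0.38 (adjusted p = 0.454). The 13 of 16 genes of methionine, transsulfuration and glutathione metabolism had a median of 0.13, and Mat2a, which makes S-adenosylmethionine, stood at -0.25 (adjusted p = 0.419). For proline and ornithine 6 of 7 genes were tested, with a median of 0.017. In each of these last 3 lists, edgeR, DESeq2 and limma-voom called 0 genes, and 0 passed an unadjusted p under 0.05. In the list of asparagine, aspartate, glutamine and alanine genes, with 10 of 11 tested and a median of 0.029, Ass1 was the gene called, while Asrgl1, which breaks asparagine down, stood at -0.39 (adjusted p = 0.322).

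Of 17 regulators of amino acid stress, 12 could be tested, and 3 were higher and 1 lower, beside 2.27% and 0.883% of all genes. Chac1, which degrades glutathione, measured 48.5, 49.6 and 118 CPM from lowest to highest in cKO and 1.75 to 5.33 CPM in controls, with a log2 fold change of 4.21 (SE 0.35, adjusted p = 3.35e-06). Atf5, a transcription factor related to ATF4, rose by 3.11 on the log2 scale (SE 0.55, adjusted p = 0.00297) and spread widely in cKO, from 10.6 to 69.8 CPM. Nfe2l2, which encodes the oxidative stress factor NRF2, rose by 1.20 (SE 0.27, adjusted p = 0.0205), a call lost without cKO replicate 2 (0.0647) or 3 (0.0822), after thinning and with the replicate block. Mycn, a Myc family transcription factor that promotes progenitor growth, fell by 0.86 on the log2 scale (SE 0.19, adjusted p = 0.0187), from 202 to 384 CPM in controls to 140 to 163 CPM in cKO. This call was lost without cKO replicate 3 (adjusted p = 0.0701) and with the replicate block. Atf4 itself stood at 255 to 334 CPM in cKO and 139 to 286 CPM in controls, with a log2 fold change of 0.59 that was not called (adjusted p = 0.143), and Ddit3 stood at 0.73 (adjusted p = 0.109). Atf4 was called higher with no filter on low counts, with a covariate for reads outside genes and without control replicate 1, and Ddit3 without cKO replicate 2 and with the set of libraries as a factor. Trib3, a pseudokinase induced with ATF4, and the stress protein Nupr1 had too few reads for the fit. Trib3 measured 1.70, 2.36 and 21.9 CPM from lowest to highest in cKO and 0 to 1.09 CPM in controls, and Nupr1 measured 4.73, 5.09 and 11.5 CPM in cKO and was at 0 in all 7 controls. These counts concern the transcripts, and the translation of ATF4 was not measured. The regulators were listed with results of these libraries already known, so their counts are not independent evidence.

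**Figure D5:**
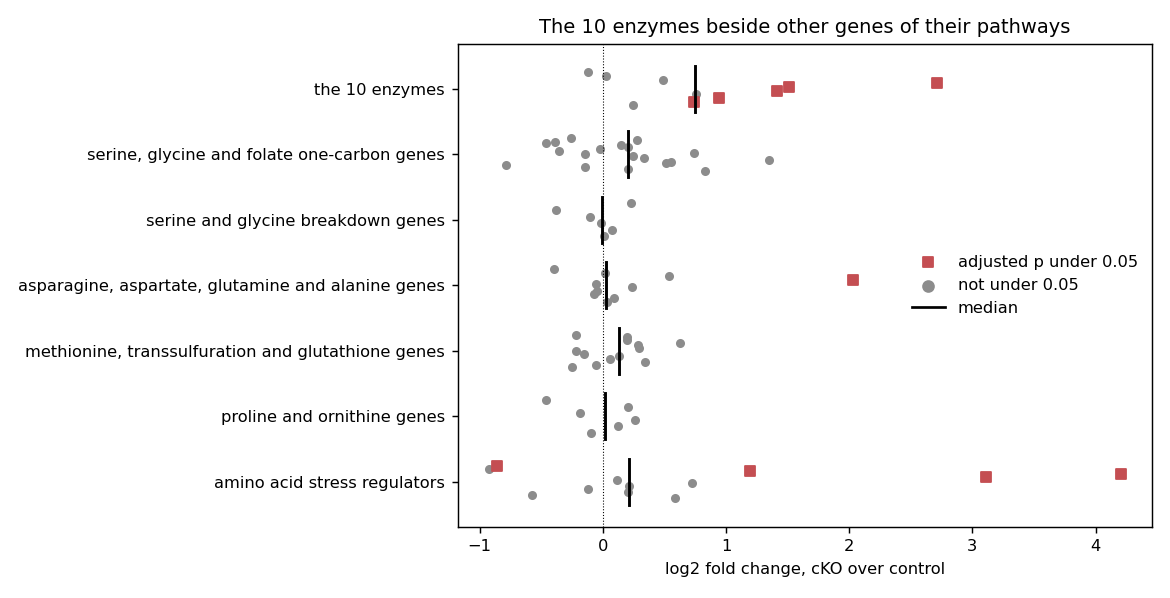
Log2 fold changes, cKO over control, of the 10 enzymes, of the other tested genes of 5 pathway lists and of 12 regulators, with a line at the median of each list (squares: adjusted p under 0.05). The 10 enzymes have a median of 0.75, while the medians of the 5 pathway lists run from -0.0026 to 0.20.

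The genes whose profile over the 10 libraries lay nearest to the mean profile of the 10 enzymes were Cntnap2, Wdr54, Arl2, Rgs17 and Tex9. Likeness was measured as the root mean square distance of log2 CPM centred on the controls, which was 0.17, 0.19, 0.20, 0.21 and 0.21 for these genes in that order, against a median of 0.65 over all genes. Cntnap2, a cell adhesion protein of neurons, had a log2 fold change of 0.75 (adjusted p = 0.0213), and Rgs17, a regulator of G protein signalling, 0.97 (adjusted p = 0.0173). The other 3 were not called, with 0.68 for Wdr54 (adjusted p = 0.115), 0.55 for Arl2 (0.0998) and 0.79 for Tex9 (0.107). The libraries that make up this likeness are those of the comparison itself, so it is a description.

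Cell type markers were examined beside these results, where edgeR called 2.27% of all genes tested higher and 0.883% lower. The sorted cells expressed radial glial and projection neuron markers in every library. Summed radial glial markers overlapped between the genotypes, at 1696 to 3007 CPM in cKO and 1839 to 2996 CPM in controls, with 0 of 11 called by edgeR, DESeq2 or limma-voom and 2 at an unadjusted p under 0.05. Intermediate progenitor markers summed to 903 to 1113 CPM in cKO and 675 to 1292 CPM in controls, with 0 of 6 called by these tools. At an unadjusted p under 0.05, 4 of them passed, as did 16.4% of all genes. These 4 split in direction, at 0.58 for Btg2, 0.31 for Elavl4, -0.68 for Neurog2 and -0.71 for Insm1 on the log2 scale. Of 13 projection neuron markers, 4 were called lower in cKO (among them Neurod6, Neurod2 and Cux2) and 0 higher, also with limma-voom, and DESeq2 called 5 lower and 0 higher. Cux2 lost its call without cKO replicate 2 or 3, and Neurod2 with the replicate block. The 13 markers summed to 7277 to 8895 CPM in cKO and 10015 to 13129 CPM in controls. Tubb3, not called (edgeR adjusted p = 0.0930), Neurod6 and Stmn2 made up much of this sum. The median log2 fold change of the 13 was -0.58, and 7 passed an unadjusted p under 0.05. Of those that edgeR did not call, Tubb3 stood at -0.60, Fezf2 at -0.59 and Cux1, which DESeq2 called, at -0.58. Others had log2 fold changes near 0 or above it, such as Stmn2 at -0.045, Map2 at -0.034, Dcx at 0.16 and Bcl11b at 0.26. Cajal-Retzius cell markers summed to 542 to 653 CPM in cKO and 19.6 to 166 CPM in controls, with 5 of 6 called higher (Reln, Trp73, Lhx1, Lhx5 and Calb2), while DESeq2 called 4 and not Trp73. Lhx5 overlapped between genotypes, at 10.6 to 47.5 CPM in cKO and 0 to 10.7 CPM in controls. The defining markers Trp73, Lhx1 and Lhx5 were at 0 in at least 1 control. Interneuron markers summed to 45.3 to 152 CPM in cKO and 17.3 to 115 CPM in controls, with 1 of 7 called and a median log2 fold change of 1.08. At an unadjusted p under 0.05, 4 were higher, as were 9.25% of all genes. The gene called was Dlx2, and its call was lost without cKO replicate 1 or 3, without control replicate 3, 4, 5, 6 or 7, with the library total as a covariate, after thinning and with the replicate block, and Dlx2 could not be tested with at least 10 reads in every library. Blood, vessel and microglia markers summed to 46.7 to 2273 CPM in cKO and 3.63 to 1806 CPM in controls. The 4 of these 12 genes that could be tested were globin genes, with 0 called by edgeR, DESeq2 or limma-voom and 1 at an unadjusted p under 0.05, and the 8 vessel and microglia genes had too few reads. With no filter on low counts 5 of the 12 were called higher, Cldn5 and Csf1r among them, and 1 lower, and the replicate block called 1 globin gene, Hba-a2, lower. For Csf1r 25 of 26 reads, and for Cldn5 23 of 29 reads, lay in a single cKO library. The sum of these 12 genes stood at 2273 CPM in cKO replicate 1 and at 51.6 and 46.7 CPM in replicates 2 and 3. The part of these cell types in the changes of the 10 enzymes was not tested. In sorted bulk samples, fewer cells of a type and less RNA per cell cannot be told apart.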

How the data were processed

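Per the labels and the study's methods, the authors sorted the cells, prepared Smart-Seq2 libraries without molecular identifiers, merged technical replicates, aligned single-hit reads to GRCm38 with STAR 2.5.0c and counted GENCODE M16 genes. The authors deposited raw read counts in 3 columns. Sense reads made up 50.3% to 50.5%, so the column that ignores the strand was used. Reads that overlap more than 1 gene are left out of it. Counting intervals cover neither amplification nor embryos. GENCODE M21, on the same build, gave symbols and lengths (105 of 53379 genes did not match).

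Genotypes were compared with edgeR 4.0.16 (TMM, glmQLFit, genotype alone, mean of at least 10 reads, Benjamini-Hochberg) in R 4.3.3. DESeq2 1.42.0 and limma 3.58.1 (voom) were alternatives, with other scalings, filters, covariates, a replicate block, thinning and each library left out. SE was the coefficient over the square root of F. Ratios used log2 of reads plus 0.5 and two-sided exact permutation over 120 splits. On simulated data with these depths and 11381 genes tested, edgeR found 48.4% of 95 genes changed 2-fold and 89.8% of 98 changed 4-fold. False calls were 8.84% with edgeR, 18.2% with DESeq2 and 5.22% with limma-voom, beside the threshold of 0.05. Calls made by DESeq2 are therefore the least strict of these. Over 24 pairs of libraries, chi-square per degree of freedom was 4.69 to 20.9, so none was a duplicate. Same-numbered libraries of both genotypes did not deviate together (correlations 0.041, -0.10 and -0.21).

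The enzymes, lists and tests were chosen with earlier results of these data known. Named genes are the 10 enzymes, Cdkn1c, up to 4 genes with the smallest p per list and the 5 nearest profiles. Some results are not reported here, and the adjustments and counts still include them. From lists without a call, fewer are named, and Atf4, Ddit3, Trib3 and Nupr1 were named after their values were seen. The split by reads outside genes was chosen after seeing the data.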

Additional observations from a re-analysis of the deposited data

Results flagged for a closer look

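Of 20 groups of control values examined (the 10 enzymes and the 10 ratios), 3 had a library far from the others, where chance alone sets about 1 in 20 apart. Control replicate 6 had 123 CPM of Pycr1, while the other controls lay between 62.0 and 80.4 CPM. Control replicate 3 had a log2 ratio of Mthfd2 to Mthfd2l of 0.12, above the other controls at -0.84 to -0.44 and below the lowest cKO library. Control replicate 5, the library with the fewest reads, had a log2 ratio of Aldh18a1 to Oat of -1.23, against -0.61 to -0.22 in the other controls.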

How the results depend on the processing

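The count of enzymes higher in cKO was 3 with the replicate block (Mthfd2, Asns and Cth), 4 to 5 with each library left out and 4 to 6 in the 12 other settings, and 0 were lower throughout. Asns and Mthfd2 were called in all 23 alternatives, and Cth in the 22 where it could be tested, since it had fewer than 10 reads in some libraries. Psph lost its call with the block alone, and Shmt2 also gained one with no filter on low counts. With each library left out, log2 fold changes ran from -0.0058 to 0.45 for Phgdh, 0.35 to 1.07 for Shmt2, 0.22 to 0.82 for Cbs, -0.062 to 0.070 for Aldh18a1 and -0.35 to 0.059 for Pycr1, and the signs of Phgdh, Aldh18a1 and Pycr1 changed. The block gave 1.14 for Cbs (adjusted p = 0.570), -0.0088 for Aldh18a1 and 0.062 for Pycr1. Log2 ratio differences with each library left out were 0.96 to 1.44 for Mthfd2/Mthfd1, 1.46 to 1.73 for Mthfd2/Mthfd2l, 1.70 to 2.63 for Cth/Cbs, 0.47 to 0.86 for Psph/Phgdh, 1.33 to 1.56 for Asns/Glul and -0.80 to 0.41 for Shmt2/Shmt1. Without a cKO library the 36 splits cannot give a p below 0.0556. With the strand-specific columns summed, Psph/Phgdh was 0.53. In the 5 pathway lists 0 genes were higher with limma-voom, at least 10 reads in every library, the block or thinning. Ass1 was not tested with at least 10 reads in every library or after thinning. With each library left out, 0 to 1 were higher (Tyms without cKO replicate 1, where Ass1 was not tested). Among regulators 7 were higher and 2 lower with no filter, 2 were lower with DESeq2 and 0 were lower with the block. With at least 10 reads in every library 1 was higher, and Chac1 and Atf5 had too few reads to be tested. The stricter motif was in 1 enzyme's promoter. Where calls of genes that stayed in the test changed, the cause was not tested. Over all genes, 262 were higher and 102 lower, against 701 and 260 with no filter, 141 and 72 with the block, 134 and 72 with at least 10 reads in every library, and 300 and 210 with DESeq2. The replicate numbers do not pair the libraries.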
